A study of Homo sapiens with 4 samples.

Results

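The genes described here are 36 human genes for the making, salvage and turnover of purine and pyrimidine nucleotides. They were chosen by name from what their enzymes are known to do, with earlier results of these data known. All 36 were found by Ensembl identifier among the 64252 genes of the count table. RNA was sequenced from cultures labelled NB4, a promyelocytic leukemia line with the PML-RARa fusion. The cultures were kept for 24 h with 8 μM dBET1 (2 libraries) or with an equal volume of its solvent DMSO (2 libraries). dBET1 is a degrader that couples a ligand of the BET bromodomain proteins to a ligand of CRBN, an adaptor of an E3 ubiquitin ligase. Nothing in the labels says whether the 2 libraries of a group came from separate cultures, so p-values measure the spread between these libraries, which may be technical.

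Cells make purines by building the ring on phosphoribosyl pyrophosphate (PRPP) until IMP is reached, and IMP is then turned into GMP or AMP. Pyrimidines are made the other way round: the ring is closed first and joined to PRPP later, which gives UMP and then UTP and CTP. Salvage enzymes recover free bases and nucleosides, and ribonucleotide reductase and the thymidylate enzymes supply the deoxynucleotides (dNTPs) for DNA. Several genes of these routes are textbook targets of MYC, and those for dNTPs are active mostly in S phase.

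Totals ran from 28019956 to 34685645 counts per library, and each member had between 121 and 18058 counts in every library. Values are given below as CPM, counts per 1000000 counts of the TMM-scaled library, with the standard deviation (SD) over n = 2 libraries in each group. Changes are log2 fold changes, dBET1 over DMSO, with standard errors (SE) and the p of edgeR's quasi-likelihood test, adjusted by Benjamini-Hochberg over the 17971 genes tested. A gene is called lower or higher at an adjusted p under 0.05. The markers of the labelled cell type were scarce: the 11 promyelocyte and granulocyte genes examined summed to 31.9 and 32.7 CPM with DMSO and 25.9 and 24.6 CPM with dBET1, and ELANE and CTSG had 0 counts in every library. The 12 erythroid genes summed to 8726 and 9812 CPM with DMSO and to 5111 and 5056 CPM with dBET1, with 11 of 12 called lower. Among all genes tested, 27.6% were called lower and 28.0% higher. The 10 lymphoid and stromal genes summed to 88.6 and 91.8 CPM and to 31.8 and 32.9 CPM. EPCAM and CD3D held most of this sum, and both were lower, at -1.93 and -1.46. Of the 7 genes tested in this list, 2 were lower and 1, COL1A1, was higher. The other 4 were not called, and the median log2 fold change of the list was 0.55. The part of these shifts in the results below was not tested. In RNA from whole cultures, fewer cells of a type and less RNA per cell cannot be told apart.

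Most nucleotide synthesis genes were lower after dBET1. Of the 36 members, all tested, 30 were lower, 3 were higher and 3 were not called. Among all genes tested 27.6% (4953) were lower and 28.0% (5038) were higher; scaled by library totals alone, 3573 were lower and 6703 higher, and of the members 28 and 5. Among the 10010 genes at least as abundant as the least abundant member, 42.3% were lower and 22.3% were higher. The median log2 fold change was -0.85 over the members, 0.048 over all genes and -0.18 over those 10010 genes. The falls were mostly smaller than the fold limit of 1 on the log2 scale, with 10 members lower past it (8.54% of all genes, 10.3% of the 10010) and 1 higher past it (16.9% of all genes, 5.63% of the 10010). Together the members made up 6477 and 6525 CPM with DMSO and 3732 and 3779 CPM with dBET1, so that the summed level with dBET1 was 0.578 of that with DMSO. Every dBET1 library lay below both DMSO libraries for 30 members (37.4% of all genes) and above both for 4 (41.9% of all genes), and the groups overlapped for TK1 and DCK. The log2 fold change of 21 members was below that of MYC, which was -0.73. Among all genes tested the 5th percentile was -1.29 and the 25th was -0.49.

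**Figure D1:**
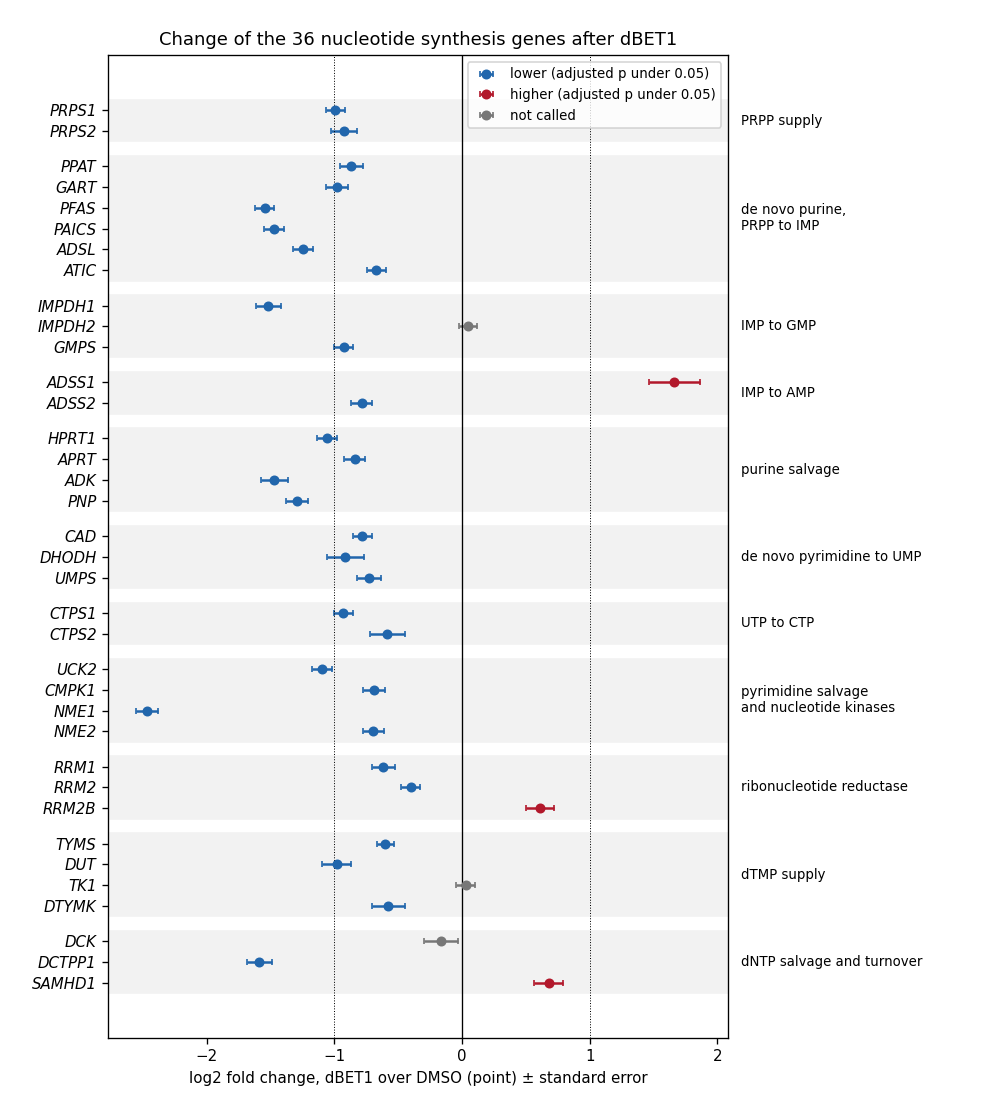
Log2 fold change, dBET1 over DMSO, of each of the 36 genes (points) with its standard error (bars), grouped by step; dotted lines mark the fold limit of 1 in each direction. NME1 lies farthest to the left at -2.47, ADSS1 farthest to the right at 1.66, and IMPDH2, TK1 and DCK, in grey, are not called.

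PRPP is made by the PRPP synthetases, and the genes of both widespread forms were lower. PRPS1 had 173 and 172 CPM with DMSO and 89.5 and 83.9 CPM with dBET1. PRPS2 had 59.6 and 53.7 CPM and then 31.4 and 28.4 CPM. Their log2 fold changes, -0.99 (SE 0.0766) and -0.92 (SE 0.103), differed by little, and the log2 ratio of PRPS1 to PRPS2 within a library moved by -0.079, close to its spread between replicates of 0.0738. PRPSAP1, a gene for a PRPP synthetase-associated protein that is no member, was higher with a log2 fold change of 0.71 (SE 0.0984, edgeR adjusted p = 0.000640).

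All 6 genes of the route from PRPP to IMP were lower, and their summed level fell from 1439 ± 70.4 CPM (SD, n = 2) with DMSO to 635 ± 19.8 CPM (SD, n = 2) with dBET1. Lower calls were made for 27.6% of all genes tested and for 42.3% of the 10010 more abundant ones. PFAS, whose enzyme adds nitrogen from glutamine at the fourth step, had 180.1 and 180.8 CPM with DMSO and 61.2 and 62.6 CPM with dBET1. Its log2 fold change was -1.54 (SE 0.0749, edgeR adjusted p = 9.74e-06). PAICS, which carries out the carboxylation step and the one after it, was the most abundant of the route in CPM, with 553 and 496 CPM with DMSO and 189 and 190.0 CPM with dBET1. Its log2 fold change, -1.47 (SE 0.0794), differed from that of PFAS by less than either SE. The groups of both genes were far apart, and the replicates of each group lay close together. ADSL, which splits off fumarate here and again on the way to AMP, had a log2 fold change of -1.25 (SE 0.0808). GART, a protein with 3 activities of the route, fell from 306 ± 24.9 CPM (SD, n = 2) to 155 ± 9.70 CPM (SD, n = 2), just short of the fold limit at -0.98. PPAT, the committed first step, was at -0.87 (SE 0.0907). ATIC, which makes the last steps to IMP, fell least, from 170.5 ± 0.910 CPM (SD, n = 2) to 107 ± 1.96 CPM (SD, n = 2), a log2 fold change of -0.67 (SE 0.0724). The first and the last enzymes of the route thus changed by less than PFAS, PAICS and ADSL in between. This did not hold clearly for GART, also in between. Its 95% interval, -1.18 to -0.78, overlapped that of PPAT, -1.08 to -0.66.

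PPAT (chromosome 4, 56393362 to 56435615, reverse strand) and PAICS (chromosome 4, 56435741 to 56464578, forward strand) lie head to head on hg38. The 125 bases between their annotated starts, shown because 2 enzymes of the route are transcribed away from it and both genes were lower, hold no GENCODE exon and are 76.0% G or C. They are given from RefSeq (GRCh38.p14), forward strand, chr4:56435616-56435740.
PPAT-PAICS: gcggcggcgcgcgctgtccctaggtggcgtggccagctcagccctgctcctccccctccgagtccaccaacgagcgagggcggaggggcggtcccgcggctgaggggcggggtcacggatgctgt
PAICS fell by more than PPAT, with log2 fold changes of -1.47 and -0.87 whose 95% intervals, -1.66 to -1.29 and -1.08 to -0.66, did not meet.

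From IMP the routes to GMP and AMP divide, and in each the related genes for the same step went apart. IMP dehydrogenase is rate-limiting for guanine nucleotides and has 2 genes. IMPDH1 (chromosome 7, 128392277 to 128409986) had 123 and 129.5 CPM with DMSO and 40.9 and 47.4 CPM with dBET1, a log2 fold change of -1.52 (SE 0.0979, edgeR adjusted p = 2.12e-05). IMPDH2 (chromosome 3, 49024325 to 49029447), known as the form raised in dividing cells, had 417 and 437 CPM with DMSO and 442 and 440.0 CPM with dBET1. Its log2 fold change was 0.047 with a 95% interval of -0.11 to 0.20 (edgeR adjusted p = 0.580), and it was called higher with library totals alone, at 0.26. All 4 libraries therefore held IMPDH2 at nearly the same level, while no dBET1 library reached 0.4 of the lower DMSO library in IMPDH1. GMPS, which turns XMP into GMP, had a log2 fold change of -0.93 (SE 0.0733). On the AMP side, ADSS2, the adenylosuccinate synthetase of most tissues, had 99.1 and 93.3 CPM with DMSO and 55.2 and 56.5 CPM with dBET1. ADSS1, the form known from muscle, went the other way, from 3.71 and 4.73 CPM to 14.3 and 12.4 CPM. ADSS1 was the only member higher past the fold limit, at 1.66 (SE 0.200, edgeR adjusted p = 0.000315), and it had the fewest counts of any member, 121 to 429 per library.

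Purine salvage was lower throughout its 4 genes, beside 27.6% lower among all genes tested and 42.3% among the 10010 more abundant ones. ADK, which phosphorylates adenosine, had 57.2 and 57.0 CPM with DMSO and 21.9 and 19.4 CPM with dBET1, a log2 fold change of -1.47 (SE 0.103). PNP, which cleaves inosine and guanosine, fell from 126 ± 1.03 CPM (SD, n = 2) to 51.4 ± 3.59 CPM (SD, n = 2). HPRT1, which returns hypoxanthine and guanine to IMP and GMP, was just past the fold limit at -1.06 (SE 0.0818). APRT, which returns adenine to AMP, was at -0.84 (SE 0.0820). Both dBET1 libraries lay below both DMSO libraries for each of these genes, as they did for 37.4% of all genes tested. MTAP, which releases adenine from the by-product of polyamine synthesis and so feeds APRT, had 0 counts in each of the 4 libraries. A count of 0 can still arise where up to 3 counts per library would be expected. The zero of MTAP was noted after the values were seen.

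**Figure D2:**
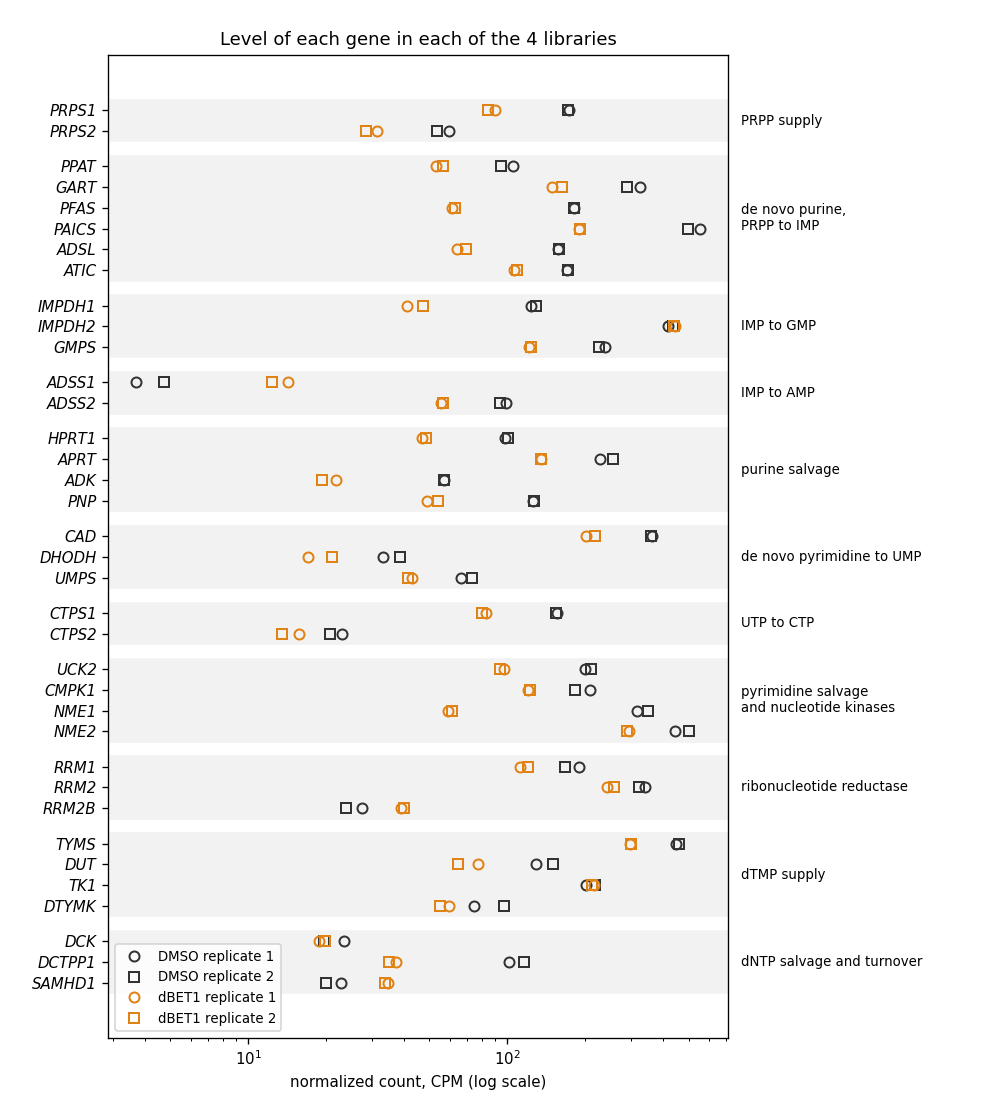
Normalized count (CPM, log scale) of each gene in each of the 4 libraries; dark symbols are DMSO and orange symbols dBET1, circles replicate 1 and squares replicate 2. Orange lies left of dark in most rows, close to or on top of it for IMPDH2, TK1 and DCK, and right of it for ADSS1, RRM2B and SAMHD1.

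The 3 genes of the pyrimidine route to UMP were lower by similar amounts, none past the fold limit. The share called lower was 27.6% among all genes tested and 42.3% among the 10010 more abundant ones. CAD, a single protein for the first 3 steps, had 362 and 358 CPM with DMSO and 201 and 218 CPM with dBET1, a log2 fold change of -0.78 (SE 0.0743). DHODH, the mitochondrial enzyme that links the route to the respiratory chain, had a log2 fold change of -0.91 (SE 0.142). UMPS, which joins the ring to PRPP and gives UMP, was at -0.73 (SE 0.0921). The summed level of the 3 genes fell from 466 ± 5.78 CPM (SD, n = 2) to 271 ± 14.3 CPM (SD, n = 2), a ratio of 0.581, against 0.441 for the 6 genes of the purine route. CTP synthase turns UTP into CTP. CTPS1, the form known from dividing lymphocytes, had 156 and 154 CPM with DMSO and 82.9 and 79.8 CPM with dBET1. CTPS2 had 23.0 and 20.7 CPM and then 15.7 and 13.5 CPM. Its call at -0.58 (SE 0.139, edgeR adjusted p = 0.00876) was lost with library totals alone (edgeR adjusted p = 0.0555) and without dBET1 replicate 2 (edgeR adjusted p = 0.0761).

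The 4 genes placed with pyrimidine salvage and nucleotide kinases, UCK2, CMPK1, NME1 and NME2, were lower. So were 27.6% of all genes tested and 42.3% of the 10010 more abundant ones. UCK2, which phosphorylates uridine and cytidine, had 199 and 209 CPM with DMSO and 97.0 and 94.1 CPM with dBET1, a log2 fold change of -1.10 (SE 0.0751), while its relative UCK1 was not called, at 0.040 (SE 0.120). UCK2 shares 142 exon bases with TMCO1 on the opposite strand, which was at 0.027. CMPK1, the UMP and CMP kinase, was at -0.69 (SE 0.0875). NME1 and NME2 encode the A and B chains of nucleoside diphosphate kinase, and they lie next to each other on chromosome 17 of hg38, NME1 at 51153559 to 51162428 and NME2 at 51165435 to 51171744. NME1 had 317 and 348 CPM with DMSO and 58.9 and 61.3 CPM with dBET1. Its log2 fold change of -2.47 (SE 0.0828, edgeR adjusted p = 2.66e-06) was the lowest of all members. NME2 had 443 and 502 CPM with DMSO and 294 and 290.0 CPM with dBET1, at -0.69 (SE 0.0809). Another annotated gene, NME1-NME2, shares 638 exon bases with NME1 and 603 with NME2 and had 9682 and 11497 counts with DMSO and 4905 and 4018 with dBET1. Reads on the shared exons can be divided among the 3 genes in different ways, so the change of each is less certain than that of their sum. The sum fell from 34504 and 35374 counts to 15503 and 14742 counts, a ratio of 0.432 after scaling, and NME1 held 29.997% and 27.6% of it with DMSO and 11.4% and 12.7% with dBET1. NME4, the mitochondrial relative, had a log2 fold change of -1.95 (SE 0.0850).

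Of the 3 genes of ribonucleotide reductase, 2 were lower and 1 was higher. The shares were 27.6% lower and 28.0% higher among all genes, and 42.3% and 22.3% among the 10010 more abundant ones. RRM1, the large subunit, fell from 178 ± 14.9 CPM (SD, n = 2) to 116 ± 6.41 CPM (SD, n = 2), a log2 fold change of -0.62 (SE 0.0884). RRM2, the small subunit of S phase, had 339 and 322 CPM with DMSO and 243 and 257 CPM with dBET1. At -0.40 (SE 0.0731, edgeR adjusted p = 0.00243) it was called lower, and the call was lost with library totals alone (-0.19, edgeR adjusted p = 0.0621) and without dBET1 replicate 1 (-0.37, edgeR adjusted p = 0.0546). RRM2B, the small subunit that serves resting cells and DNA repair, went the other way, from 27.5 and 23.9 CPM to 39.0 and 39.8 CPM. Its log2 fold change was 0.61 (SE 0.109, edgeR adjusted p = 0.00219). Both dBET1 libraries lay above both DMSO libraries, as they did for 41.9% of all genes tested.

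TYMS, which makes dTMP from dUMP, fell from 454 ± 7.17 CPM (SD, n = 2) to 299 ± 2.50 CPM (SD, n = 2), a log2 fold change of -0.60 (SE 0.0671). DUT, which removes dUTP and gives the dUMP that TYMS uses, was at -0.98 (SE 0.114); an overlapping antisense gene, DUT-AS1, had at most 9.71% of its counts in any library. DTYMK, the dTMP kinase, was at -0.58 (SE 0.129), and its DMSO libraries differed from each other, at 74.5 and 96.9 CPM. TK1, the thymidine kinase of S phase, did not follow the other 3: it had 202 and 218 CPM with DMSO and 217 and 212 CPM with dBET1. The groups of TK1 overlapped, its log2 fold change was 0.029 with a 95% interval of -0.14 to 0.20 (edgeR adjusted p = 0.763), and it was called higher, at 0.24, with library totals alone. TYMS shares 967 exon bases with ENOSF1 on the opposite strand, which had 3461 to 3542 counts in each library and a log2 fold change of -0.0038, and the strand setting of the counting is not given in the sources used here.

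The last 3 members recover or remove dNTPs and went in different directions. DCTPP1, which breaks down dCTP and its modified forms, had 101 and 116 CPM with DMSO and 37.4 and 35.0 CPM with dBET1. Its log2 fold change was -1.59 (SE 0.100), close to those of PFAS, IMPDH1 and PAICS. DCTPP1 shares 645 exon bases with ZNF771 on the opposite strand, which had at most 21.1% of its counts in any library. DCK, which phosphorylates deoxycytidine and the drug cytarabine, had 23.5 and 19.6 CPM with DMSO and 18.7 and 19.9 CPM with dBET1; it was not called, and the 95% interval of its log2 fold change was -0.48 to 0.15. DCK also shares 199 exon bases with MOB1B on the same strand, which had up to 384% of its counts in a library and was higher at 0.76 (edgeR adjusted p = 0.000702). SAMHD1, which hydrolyses dNTPs and is known for keeping their level low in resting cells, rose from 22.8 and 19.9 CPM to 34.5 and 33.9 CPM, a log2 fold change of 0.68 (SE 0.114, edgeR adjusted p = 0.00167).

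Ratios of related genes within a library depend little on how the libraries are scaled, apart from the 0.5 CPM added to each gene, which draws the ratio of a low gene such as ADSS1 toward 0 on the log2 scale. Groups did not overlap for 6 of the 9 pairs examined. For the levels of single genes, dBET1 lay below both DMSO libraries in 37.4% of all genes tested and above both in 41.9%. No such share was computed for ratios of other gene pairs, so the lack of overlap is not read as a trait of these pairs. The log2 ratio of ADSS2 to ADSS1 was 4.57 and 4.16 with DMSO and 1.91 and 2.14 with dBET1, a change of -2.34 against a spread between replicates of 0.231. For NME1 over NME2 it was -0.48 and -0.53 and then -2.31 and -2.23. For IMPDH2 over IMPDH1 it was 1.76 and 1.75 and then 3.42 and 3.20, the only ratio of the 6 that rose. These 3 ratios changed by 5.05, 3.40 and 2.94 times. That of NME1 to NME2 depends on how reads were divided with NME1-NME2, which had up to 277% of the counts of NME1 in a library. The log2 ratios of UCK2 to UCK1, RRM2 to RRM2B and CTPS1 to CTPS2 fell by 1.13, 1.01 and 0.36, against spreads of 0.0646, 0.0645 and 0.103. The groups overlapped for PRPS1 over PRPS2, TK1 over its mitochondrial relative TK2, and DCK over its mitochondrial relative DGUOK. With 2 libraries against 2 an exact permutation test, two-sided, cannot give a p below 0.333, and each of the 6 ratios had that p.

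**Figure D3:**
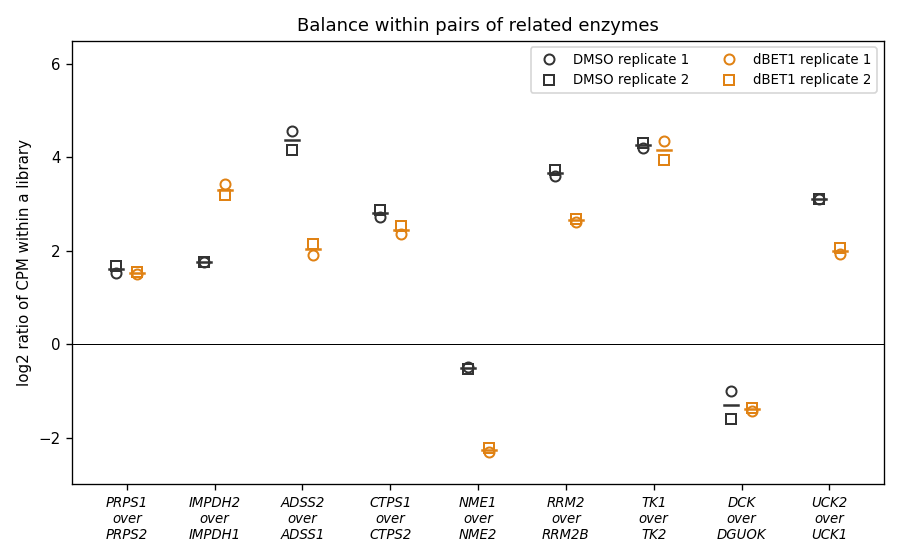
Log2 ratio of the CPM of 2 related genes within each library for 9 pairs; dark symbols are DMSO and orange symbols dBET1, circles replicate 1, squares replicate 2, short lines group means. The ratio rose for IMPDH2 over IMPDH1, from 1.75 to 3.31, and fell most for ADSS2 over ADSS1, from 4.36 to 2.03.

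Levels of different genes can be compared only per length, and CPM was therefore divided by the length of each gene's canonical transcript in kilobases. With DMSO the highest levels were those of NME2 at 685 ± 60.0, NME1 at 373 ± 24.2 and TYMS at 281 ± 4.45 CPM per kb (SD, n = 2). APRT and IMPDH2 followed at 259.6 ± 21.3 and 259 ± 8.33 CPM per kb (SD, n = 2), a difference within their spread. With dBET1 the order was NME2 at 423 ± 4.27, IMPDH2 at 267 ± 0.960, TYMS at 186 ± 1.55, TK1 at 149.8 ± 2.36 and APRT at 145 ± 0.392 CPM per kb (SD, n = 2). NME1 moved from rank 2 to rank 7 among the 36 genes at this scale, DCTPP1 from 9 to 17 and PAICS from 13 to 18, while IMPDH2 moved from 5 to 2, DTYMK from 14 to 8 and ADSS1 from 36 to 31. The ranks of NME1 and NME2 depend on how reads were divided with NME1-NME2. On the same scale IMPDH2 held 84.3% and 84.2% of the IMPDH1 and IMPDH2 sum with DMSO and 94.5% and 93.6% with dBET1. ADSS2 held 94.7% and 93.0% of the sum of both ADSS genes with DMSO and 72.3% and 75.4% with dBET1. RRM2 held 94.8% and 95.2% of the small subunit sum and then 90.1% and 90.5%. These shares rest on 1 transcript per gene and would shift if cells use another.

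The promoters of members were searched for the letters of 3 motifs in RefSeq windows from 250 bases before to 50 bases after each annotated start (GRCh38.p14). Windows were found for 33 of 36 members, all but ADSL, IMPDH2 and RRM2B. The E-box CACGTG, the textbook site of MYC and its relatives, was present for 7 of 33 members (21.2%), against 12.7% of 10114 tested coding genes. A gene was counted if any of its windows held the motif, and the 33 members had 49 windows. Counted by single window, which cannot be set against these shares of genes, 7.26% of all 35116 windows held the E-box. The stretches of 30 bases around it are shown for these genes because they include members far past the fold limit, such as NME1, and 1 that was not called, with the E-box in capitals, 5′ to 3′ on the strand of the gene. The PPAT stretch, chr4:56435780-56435809, lies before the start of PPAT and inside an annotated exon of PAICS, so both genes hold this E-box in their windows. The others are NME1 at chr17:51153579-51153608, DCTPP1 at chr16:30429792-30429821, DHODH at chr16:72008573-72008602, ATIC at chr2:215312001-215312030 and DCK at chr4:70993521-70993550. Those of NME1, DCTPP1, DHODH and ATIC also overlap annotated exons, and that of DCK overlaps none. The E-box of NME1 lies 34 bases after the RefSeq start.
NME1: caagtgctgcgaacCACGTGggtcccgggc
DCTPP1: ggagggttcctcCACGTGgtcgggaagcgg
PPAT and PAICS: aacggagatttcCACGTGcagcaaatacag
DHODH: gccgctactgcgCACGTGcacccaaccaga
ATIC: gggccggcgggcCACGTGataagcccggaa
DCK: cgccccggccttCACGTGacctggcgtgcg
NME1 and DCTPP1, at -2.47 and -1.59, and DCK, which was not called, all hold the same 6 letters. ATIC holds them a second time, 29 bases after the RefSeq start. The median log2 fold change was -0.91 over the 7 members with an E-box and -0.81 over the 26 without one in these windows. Any of TTTCCCGC, TTTCGCGC, TTTGCCGC and TTTGGCGC, the common forms of the E2F motif, on either strand, was present for PRPS2, GART, TYMS, DUT and DCK (15.2%, against 6.53% of the tested coding genes). The stretches of TYMS (chr18:657603-657632) and DUT (chr15:48332144-48332173), both thymidylate genes, are shown with the motif in capitals.
TYMS: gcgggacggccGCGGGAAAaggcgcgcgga
DUT: gggcggggctgGCGGGAAAtttcggttttg
The members with an E2F motif had a median log2 fold change of -0.92, against -0.85 for those without. CCAAT, on either strand, was present for 13 of 33 members (39.4%, against 43.2% of the tested coding genes). None of these motifs contains another, and a match describes the sequence and no binding.

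Other genes around these routes moved in both directions. Of 22 tested genes for other nucleotide kinases and salvage, 9 were lower and 2 were higher, with a median log2 fold change of -0.26, beside 27.6% lower and 28.0% higher among all genes and 42.3% and 22.3% among the 10010 more abundant ones. AK6, an adenylate kinase of the nucleus, fell from 25.9 ± 1.43 CPM (SD, n = 2) to 10.7 ± 0.222 CPM (SD, n = 2), a change of -1.28 (SE 0.128) on the log2 scale. AK9 was higher, at 1.67 (SE 0.305), from under 1 CPM with DMSO. Of 18 tested genes of nucleotide breakdown, 9 were lower and 5 were higher (median -0.27). ENTPD1, an ectonucleotidase, was at -0.94 (SE 0.144) and NT5C3A, a pyrimidine nucleotidase, at -0.79 (SE 0.120). AMPD2, an AMP deaminase, was at -0.72 (SE 0.0820), while AMPD3, its red cell form, was at 0.47 (SE 0.127), and the 3 of this list higher past the fold limit, UPP1, DPYS and UPB1, had at most 16 counts in any DMSO library; UPB1 was named after its values were seen. SLC43A3, a purine base transporter, had 566 and 549 CPM with DMSO and 192 and 188 CPM with dBET1. SLC29A2, a nucleoside transporter, was at -1.04 (SE 0.116), and in all 2 of 5 tested transporters were lower and 1, SLC29A3 of lysosomes, was higher.

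Folate enzymes supply the carbon for purine rings and for dTMP. Of 16, all tested, 9 were lower and 3 were higher (median -0.41). Among all genes tested the shares were 27.6% lower and 28.0% higher, and among the 10010 more abundant ones 42.3% and 22.3%. MTHFD1, which makes the formyl-folate used by GART and ATIC, had 294 and 279 CPM with DMSO and 93.1 and 79.2 CPM with dBET1. MTHFD1L, its mitochondrial relative, was at -1.64 (SE 0.0871), and SLC19A1, the reduced folate carrier, at -2.07 (SE 0.0892). Among the higher genes, ALDH1L1, which oxidises formyl-folate, had 3.52 and 3.99 CPM with DMSO and 22.7 and 24.4 CPM with dBET1. FTCD, of histidine breakdown, was at 1.43 with at most 12 counts in a DMSO library.

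**Figure D4:**
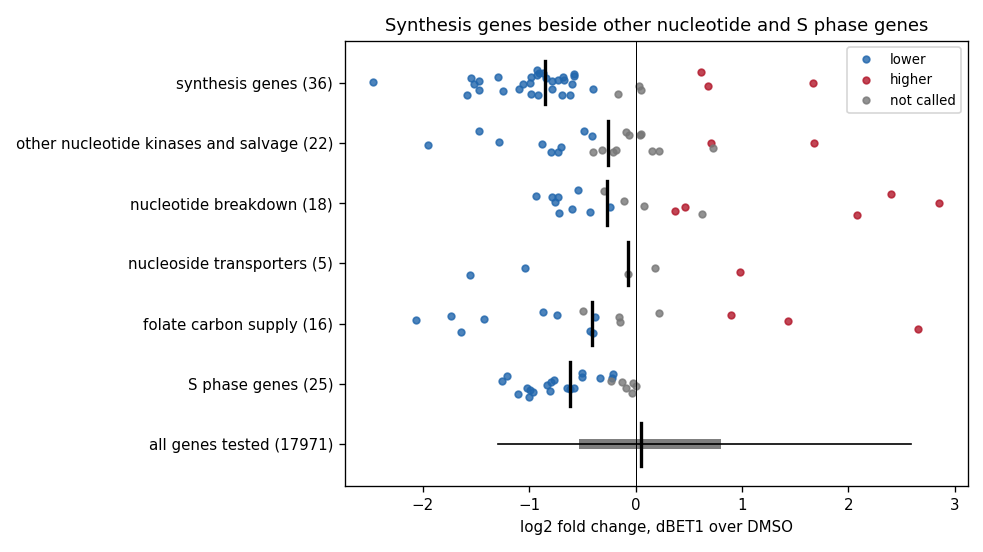
Log2 fold change, dBET1 over DMSO, of each tested gene (points) of the 36 synthesis genes and of 5 other lists, with the median of each list as a black line and genes coloured as lower (blue), higher (red) or not called (grey); the bottom row gives all 17971 genes, the thick bar from the 25th to the 75th percentile and the thin line from the 5th to the 95th. The median is -0.85 for the synthesis genes and 0.048 for all genes.

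Regulators named for these routes changed unequally. MYC had 445 and 465 CPM with DMSO and 278 and 269 CPM with dBET1. E2F1 was not called, at -0.13 (SE 0.0916, edgeR adjusted p = 0.271), while E2F2 was at -1.17 (SE 0.0961) and E2F4, a repressor of resting cells, at -1.07 (SE 0.0753).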

How the data were processed

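Total RNA of cultures labelled NB4 was sequenced as paired-end reads in 4 libraries (TRIzol per the labels, a column kit per the paper). The authors aligned reads to hg38 with HISAT2 2.2.0, estimated abundance with StringTie and deposited whole-number counts per Ensembl gene, without normalization; the counting step and its strand setting are not given in the sources used here. Members and lists were chosen with earlier results of these data known. Symbols, loci and canonical transcript lengths came from GENCODE on hg38 (56105 of 64252 identifiers matched; 0 columns left out, 0 rows without a gene).

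Counts were filtered with filterByExpr, scaled with TMM factors and tested with the quasi-likelihood test of edgeR 4.0.16 in R 4.3.3, with the group as the only term. The SE was the log2 fold change divided by the square root of F. Pair ratios used log2(CPM + 0.5). The steps were tested on simulated data. Chi-square per degree of freedom between replicates was 23.6 (DMSO) and 8.14 (dBET1), so no library was a copy of another. Named genes are all members, both genes of each pair, MYC, E2F1 and, per other list and direction, up to 3 called genes ranked by p, some of which are not reported here; others are marked. Alternatives were DESeq2 1.42.0, its size factors, library totals, other count filters, counts divided by 2, a replicate block and each library left out. Groups of 2 are too small to test for outlying samples.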

Additional observations from a re-analysis of the deposited data

How the results depend on the processing

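The numbers of members lower and lower past the fold limit stayed within 1.5 times their values under every alternative. With library totals alone, which moved the median of all genes from 0.048 to 0.26, 5 members were higher, the added calls being IMPDH2 and TK1, and CTPS2 and RRM2 were not called. The median log2 fold change of the members was -0.64 with library totals, -0.89 with DESeq2 and with its size factors in edgeR, -0.91 with no count filter, -0.78 with at least 10 counts in every sample, -0.82 with counts divided by 2 and -0.86 to -0.80 when libraries were left out singly. TK1 turned negative with DESeq2 (-0.0052), with its size factors (-0.0053), with no count filter (-0.025) and without DMSO replicate 1 (-0.054; range with 1 library left out -0.054 to 0.056). IMPDH2 turned negative with no count filter (-0.0069) and without DMSO replicate 1 (-0.012; range -0.012 to 0.050), and DCK turned positive with library totals (0.045). None of these reversals was a call. Of the other nucleotide genes, 11 were higher in the main comparison, 5 with DESeq2, 6 with no count filter, and 6 to 10 when 1 library was left out, 6 without dBET1 replicate 1 and 7 without dBET1 replicate 2. The causes were not tested. With the replicate number as a block, 30 members were lower and 3 higher, the same genes as without it; the deviations of same-numbered libraries correlated at 0.043 over 11027 genes, so the numbers were not taken as pairs. The SEs of the members ran from 0.0671 to 0.200, the highest being that of ADSS1, which had the fewest counts.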

Other observations

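Genes of DNA replication were set beside the dNTP genes. Of 25 tested S phase genes, 19 were lower and 0 were higher, with a median log2 fold change of -0.61 and 5 lower past the fold limit. Among all genes tested 27.6% were lower, 28.0% higher and 8.54% lower past the limit. Among the 10010 more abundant genes these shares were 42.3%, 22.3% and 10.3%. MCM3, a subunit of the replicative helicase, fell from 544 ± 8.19 CPM (SD, n = 2) to 228 ± 2.66 CPM (SD, n = 2), PCNA, the sliding clamp, from 473 ± 6.01 CPM (SD, n = 2) to 232 ± 1.09 CPM (SD, n = 2), and CDC45 from 316 ± 3.06 CPM (SD, n = 2) to 137 ± 1.27 CPM (SD, n = 2). RRM2, TYMS and TK1, the dNTP genes most closely tied to S phase, were at -0.40, -0.60 and 0.029. Of these 3 genes, TK1 was not called, and the call of RRM2 was lost with library totals alone. Whether the changes of the S phase genes are linked to those of these 3 genes was not tested.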
